A study of Homo sapiens with 6 samples.

Results

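MORF4L1 and the subunits of the TIP60 histone acetyltransferase complex were followed in HCT116 cells, an established human colon cancer line, with and without a hairpin against NFX1-91. The 10 genes were chosen by name, as MORF4L1, its relative MORF4L2 and TIP60 subunits, at a time when results of this same comparison were known. Of the 10, 9 were on the array (MORF4L1, MORF4L2, MRGBP, KAT5, EP400, TRRAP, RUVBL1, RUVBL2 and ING3), out of 11963 genes that had a single-gene probe set. The expression of DMAP1 was not analysed here. The 9 genes were read by 14 probe sets out of 22215, each annotated to exactly 1 gene, and 0 probe sets annotated to several genes included a member.

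NFX1-91 is one of the splice forms made from NFX1, and is known to repress transcription of TERT. Both groups carried a hairpin delivered by the lentiviral vector FUGW and expressed stably: the hairpin against NFX1-91 on 3 arrays, and a control hairpin against β-galactosidase on the other 3 arrays. Whether replicate arrays stand for separate cultures, and whether the stable cells were a pool or 1 clone, is not stated in the labels, and all p-values measure only a spread between arrays that may be technical. Total RNA of whole cultures was measured, in which fewer cells expressing a gene and less RNA per cell cannot be told apart.

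TIP60, encoded by KAT5, is an acetyltransferase that works in a large assembly on chromatin, where it acetylates histones H4 and H2A and takes part in transcription and in the response to broken DNA. MORF4L1, also called MRG15, reads methylated histone tails through its chromodomain and joins TIP60 through MRGBP, but it also sits in SIN3 and KDM5 corepressor assemblies and binds the repair factor PALB2. EP400 is the remodelling ATPase of the assembly, TRRAP its large scaffold that activators such as MYC contact, RUVBL1 and RUVBL2 are paired AAA+ ATPases shared with other remodellers, and ING3 reads trimethylated lysine 4 of histone H3.

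The upstream letters of 4 members are shown because these genes share a complex and moved unequally: MORF4L1, MRGBP and KAT5 fell and RUVBL2 was called higher. Each is the 250 bases before a transcript start in RefSeq on GRCh38.p14, written 5′ to 3′ along the gene, and 7 of the 10 names had an entry. Capitals mark matches, on either strand, to an E-box (CACGTG), to an ETS-type motif (CCGGAAG) or to an NRF1-type motif (CGCNTGCGC). No marked matches overlapped in these 4 windows.
MORF4L1, chr15:78872640-78872889, plus strand: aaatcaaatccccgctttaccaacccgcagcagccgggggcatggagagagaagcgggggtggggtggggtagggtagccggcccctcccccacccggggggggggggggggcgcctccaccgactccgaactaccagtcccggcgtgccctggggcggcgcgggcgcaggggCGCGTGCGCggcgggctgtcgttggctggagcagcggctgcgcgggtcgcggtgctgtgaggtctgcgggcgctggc
MRGBP, chr20:62796223-62796472, plus strand: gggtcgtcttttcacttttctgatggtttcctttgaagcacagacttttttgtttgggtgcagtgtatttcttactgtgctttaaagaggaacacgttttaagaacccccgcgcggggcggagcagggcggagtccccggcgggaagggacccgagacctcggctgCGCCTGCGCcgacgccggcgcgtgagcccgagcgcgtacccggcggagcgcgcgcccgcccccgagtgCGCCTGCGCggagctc
KAT5, chr11:65712002-65712251, plus strand: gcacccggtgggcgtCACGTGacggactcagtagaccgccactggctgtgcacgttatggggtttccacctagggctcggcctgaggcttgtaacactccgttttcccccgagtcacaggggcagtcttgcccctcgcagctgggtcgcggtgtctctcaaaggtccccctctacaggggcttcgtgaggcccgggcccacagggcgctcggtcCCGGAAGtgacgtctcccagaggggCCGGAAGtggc
RUVBL2, chr19:48993637-48993886, plus strand: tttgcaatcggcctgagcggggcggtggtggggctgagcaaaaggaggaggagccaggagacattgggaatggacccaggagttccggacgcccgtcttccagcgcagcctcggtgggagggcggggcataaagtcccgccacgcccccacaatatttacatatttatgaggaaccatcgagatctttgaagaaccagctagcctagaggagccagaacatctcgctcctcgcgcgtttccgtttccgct
The MORF4L1 window held 1 NRF1-type match and the MRGBP window 2. The KAT5 window held 1 E-box and 2 ETS-type matches, and the EP400 window, not printed, 1 ETS-type match. The window of DMAP1, not printed, held 2 ETS-type matches. The printed window of RUVBL2, its other start and both starts of RUVBL1 held 0 matches to these 3 motifs. Of 35116 promoters of that length, 6.34% held the E-box, 8.52% the ETS-type and 6.56% the NRF1-type motif. The GC box GGGCGG, in 42.6% of promoters, was counted but not capitalised. MORF4L1 had 1 match, MRGBP 3, EP400 2 and each start of RUVBL2 2, while KAT5, DMAP1 and both starts of RUVBL1 had 0. The motifs were picked after the sequences had been seen, and a match describes letters only.

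Signals below are the deposited intensities scaled to an average of 500 per array, and fold changes are log2(signal + 16) of NFX1-91 shRNA minus control shRNA. The offset of 16 understates changes of dim probe sets. Calls are those of limma fitted on all 22215 probe sets at an adjusted p under 0.05. For the members these calls are descriptions, since the genes were picked with this comparison in view. Signals of different member probe sets are not read as amounts of RNA against each other, as probes differ in how brightly they bind. Sums of marker signals, their place against the array median and the words dim and bright are rough for that reason.

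By that fit 10 of the 14 member probe sets were lower, 1 was higher and 3 did not pass, while over all probe sets 13.7% were lower and 12.0% higher. In either direction 25.7% of all probe sets passed. Groups that did not overlap were seen for 11 member probe sets that were lower and 1 that was higher, against 19.7% and 19.3% of all probe sets (39.0% together). The median log2 fold change was -0.41 over the 14 probe sets and 0.01 over all probe sets. For 6 genes (MORF4L1, MRGBP, KAT5, EP400, RUVBL1 and ING3) every probe set was called lower. These shares are a property of genes that were picked with the outcome known, and nothing is read from them.

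**Figure D1:**
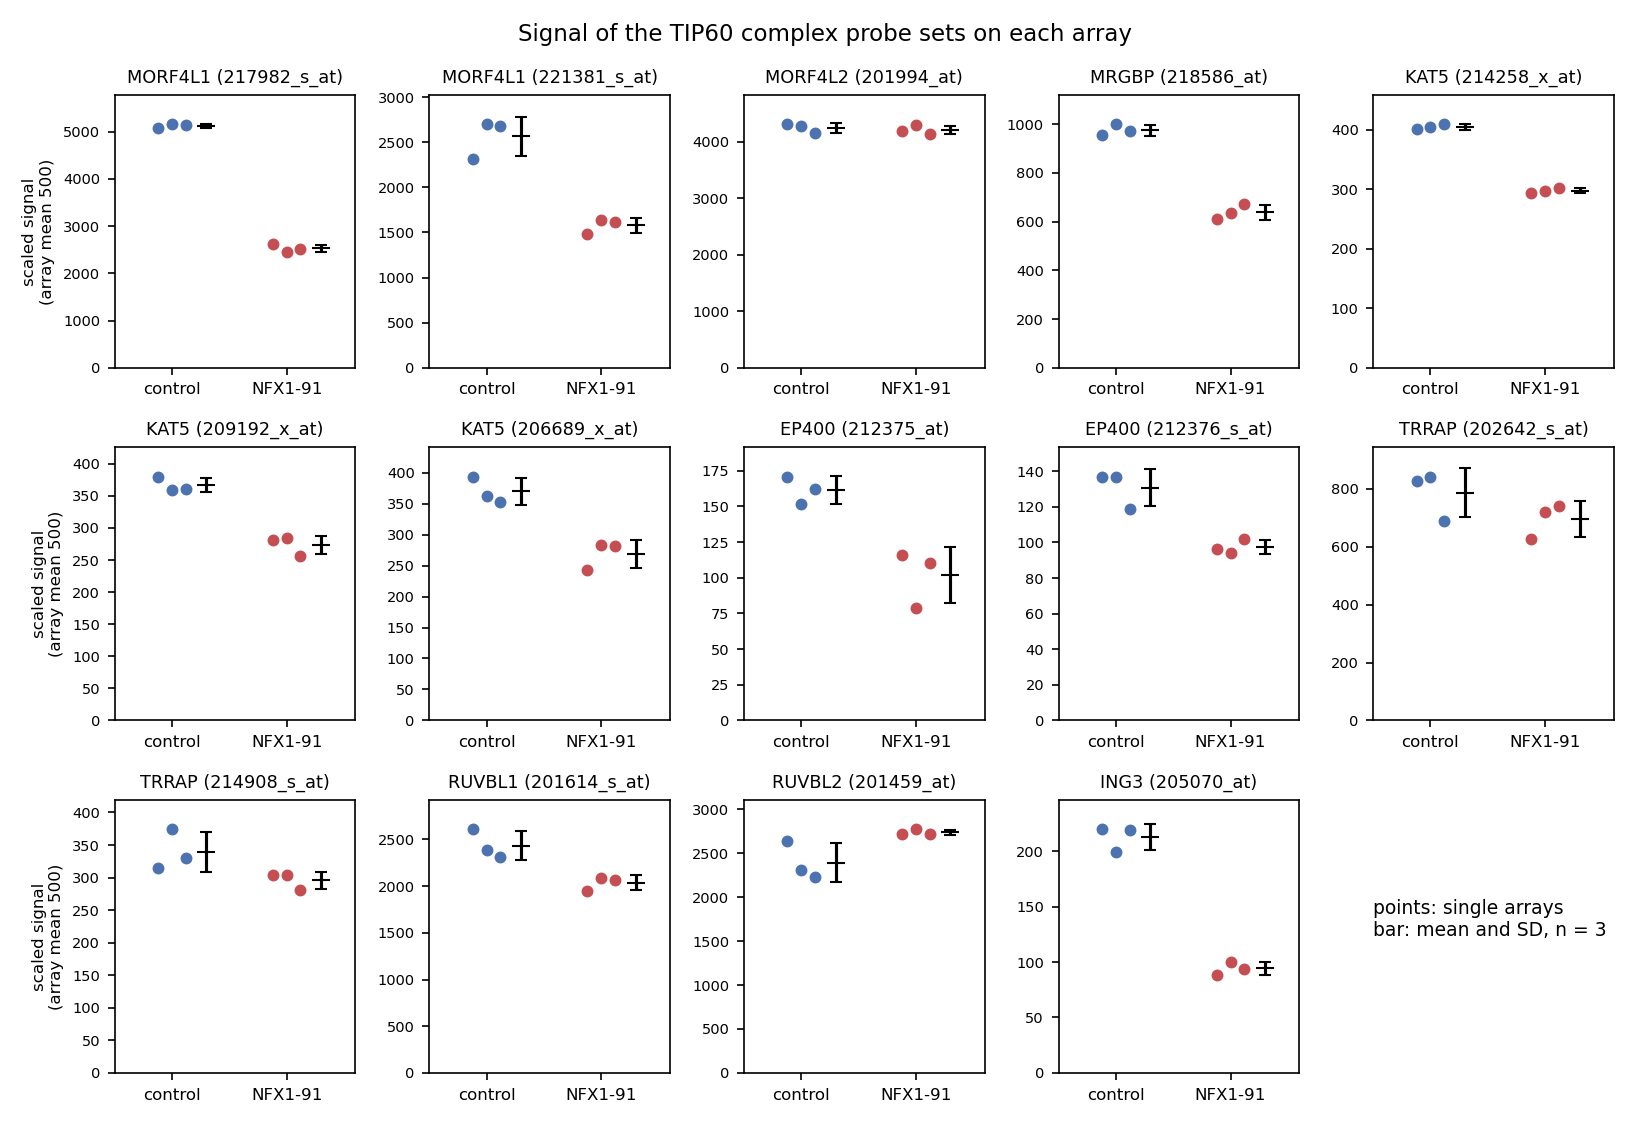
Scaled signal (y axis, array mean 500, each panel starting at 0) of the 14 member probe sets on the 3 control shRNA and 3 NFX1-91 shRNA arrays. Points are arrays, and the bar beside them is the mean with its SD (n = 3). For MORF4L1 probe set 217982_s_at all NFX1-91 shRNA arrays lie at or below 2613 and all control arrays at or above 5084, while the MORF4L2 groups overlap.

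MORF4L1 had 2 probe sets, both of the kind that can also detect related transcripts (_s_at), and both fell. The brighter, 217982_s_at, read 5084, 5159 and 5133 on the control arrays and 2613, 2461 and 2513 on the NFX1-91 shRNA arrays. The groups lay far apart, with a spread inside each that was small beside the gap. The means were 5125 ± 38.0 and 2529 ± 77.3 (SD, n = 3 per group), and the log2 fold change -1.01 (SE 0.035) with a 95% interval from -1.09 to -0.94. Only 1.08% of all probe sets had a change as low or lower.

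The other MORF4L1 probe set, 221381_s_at, read 2316, 2699 and 2677 in controls and 1484, 1639 and 1613 in NFX1-91 shRNA arrays. Again the groups did not overlap, and control replicate 1 was the lowest of its group. The log2 fold change was -0.69 (SE 0.067). Between the 2 probe sets the changes differed by -0.32 (SE 0.095), with an exact two-sided permutation p of 0.1, the smallest that 3 against 3 arrays allow, and an adjusted p of 0.6 over the 6 pairs of probe sets compared within members. Both probe sets thus showed a fall, of a size that depends on which is read.

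MORF4L2, or MRGX, is the close relative of MORF4L1 that lacks the chromodomain and also joins TIP60 and SIN3 assemblies. Its single probe set, 201994_at, read 4308, 4277 and 4145 in controls and 4194, 4288 and 4140 in NFX1-91 shRNA arrays. The groups overlapped throughout. The log2 fold change was -0.01 (SE 0.032), with a 95% interval from -0.09 to 0.06. Its sign turned with array weights and with median centring, so no direction is given for MORF4L2.

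MRGBP, the adaptor that holds MORF4L1 or MORF4L2 in the TIP60 complex, read 955, 1000 and 973 in controls on probe set 218586_at. The NFX1-91 shRNA arrays read 611, 634 and 672. The groups were apart by far more than the spread inside each. The means were 975.7 ± 22.7 and 639 ± 30.9 (SD, n = 3 per group), and the log2 fold change -0.60 (SE 0.054).

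ING3, the histone reader of the complex, fell about as far as MORF4L1 on 217982_s_at, and further than MORF4L1 on 221381_s_at (-0.69). Which of ING3 and MORF4L1 217982_s_at had the lower log2 fold change depended on the processing. With quantile normalization ING3 read -1.01 and MORF4L1 217982_s_at -1.04. Probe set 205070_at read 219.7, 199.6 and 219.4 in controls and 88.6, 99.99 and 94.1 in NFX1-91 shRNA arrays. No array of one group came near the other. The log2 fold change was -1.05 (SE 0.092), with a 95% interval from -1.26 to -0.84. Over 16 alternatives it ran from -1.17 with an offset of 1 to -0.81 with an offset of 64.

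KAT5, the catalytic subunit, was read by 3 probe sets of the _x_at kind, whose probes can match other transcripts. On 214258_x_at the control arrays read 401, 404 and 409.6 and the NFX1-91 shRNA arrays 294, 297 and 303. On 209192_x_at the controls read 379.8, 359 and 361 against 280.4, 283.6 and 257, and on 206689_x_at 393, 362 and 353 against 243, 283 and 281. All 3 separated the groups. Their log2 fold changes of -0.42 (SE 0.060), -0.40 (SE 0.070) and -0.44 (SE 0.082) differed from each other by at most 0.04, with exact permutation p from 0.8 to 0.9. The 3 probe sets may share probes and are no independent readings.

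EP400, the remodelling ATPase, fell on both of its probe sets. On 212375_at the control arrays read 171, 151 and 162 and the NFX1-91 shRNA arrays 116, 79.1 and 110.2. On 212376_s_at they read 136.9, 136.7 and 118.7 against 96.1, 94.2 and 102. Neither pair of groups overlapped, and NFX1-91 shRNA replicate 2 was the lowest array on both. The log2 fold changes were -0.61 (SE 0.135) and -0.37 (SE 0.10), which differed by -0.24 (SE 0.152, exact permutation p = 0.2). The call of 212376_s_at was lost when any of 4 arrays was left out (control replicate 1 or 2, NFX1-91 shRNA replicate 1 or 2; limma adjusted p from 0.0562 to 0.10) and with the replicate block (adjusted p = 0.0648).

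TRRAP, the scaffold that TIP60 shares with SAGA, did not pass on either probe set. On 202642_s_at the controls read 829, 842 and 689 and the NFX1-91 shRNA arrays 626, 719 and 741.5, and the groups overlapped. On 214908_s_at they read 315, 374 and 331 against 303.4, 303.4 and 281, which did not overlap. The log2 fold changes were -0.17 (SE 0.092, limma adjusted p = 0.226) and -0.19 (SE 0.082, adjusted p = 0.139). Their 95% intervals ran from -0.38 to 0.04 and from -0.37 to -0.001, so falls larger than that of RUVBL1 (-0.26) lie inside both.

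The paired ATPases RUVBL1 and RUVBL2, or pontin and reptin, were called in opposite directions, both by small amounts. RUVBL1 on 201614_s_at read 2609, 2384 and 2312 in controls and 1943, 2091 and 2070 in NFX1-91 shRNA arrays, a log2 fold change of -0.26 (SE 0.054). RUVBL2 on 201459_at read 2643, 2313 and 2224 in controls and 2714, 2773 and 2723 in NFX1-91 shRNA arrays, a log2 fold change of 0.20 (SE 0.061, limma adjusted p = 0.0444). Both pairs of groups were apart, for RUVBL2 by the narrow step between control replicate 1 and the lowest NFX1-91 shRNA array. The RUVBL1 call was lost without a variance trend (adjusted p = 0.0569).

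The call of RUVBL2 was lost in 8 of 16 alternatives. Among them were all single-array omissions but that of control replicate 1: without control replicate 2 or 3 the log2 fold change was 0.17 (limma adjusted p = 0.155) or 0.15 (adjusted p = 0.140). Without NFX1-91 shRNA replicate 1, 2 or 3 it was 0.20, 0.19 or 0.20 (adjusted p = 0.106, 0.147 and 0.110). Without control replicate 1 it was 0.27 (adjusted p = 0.00110).

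**Figure D2:**
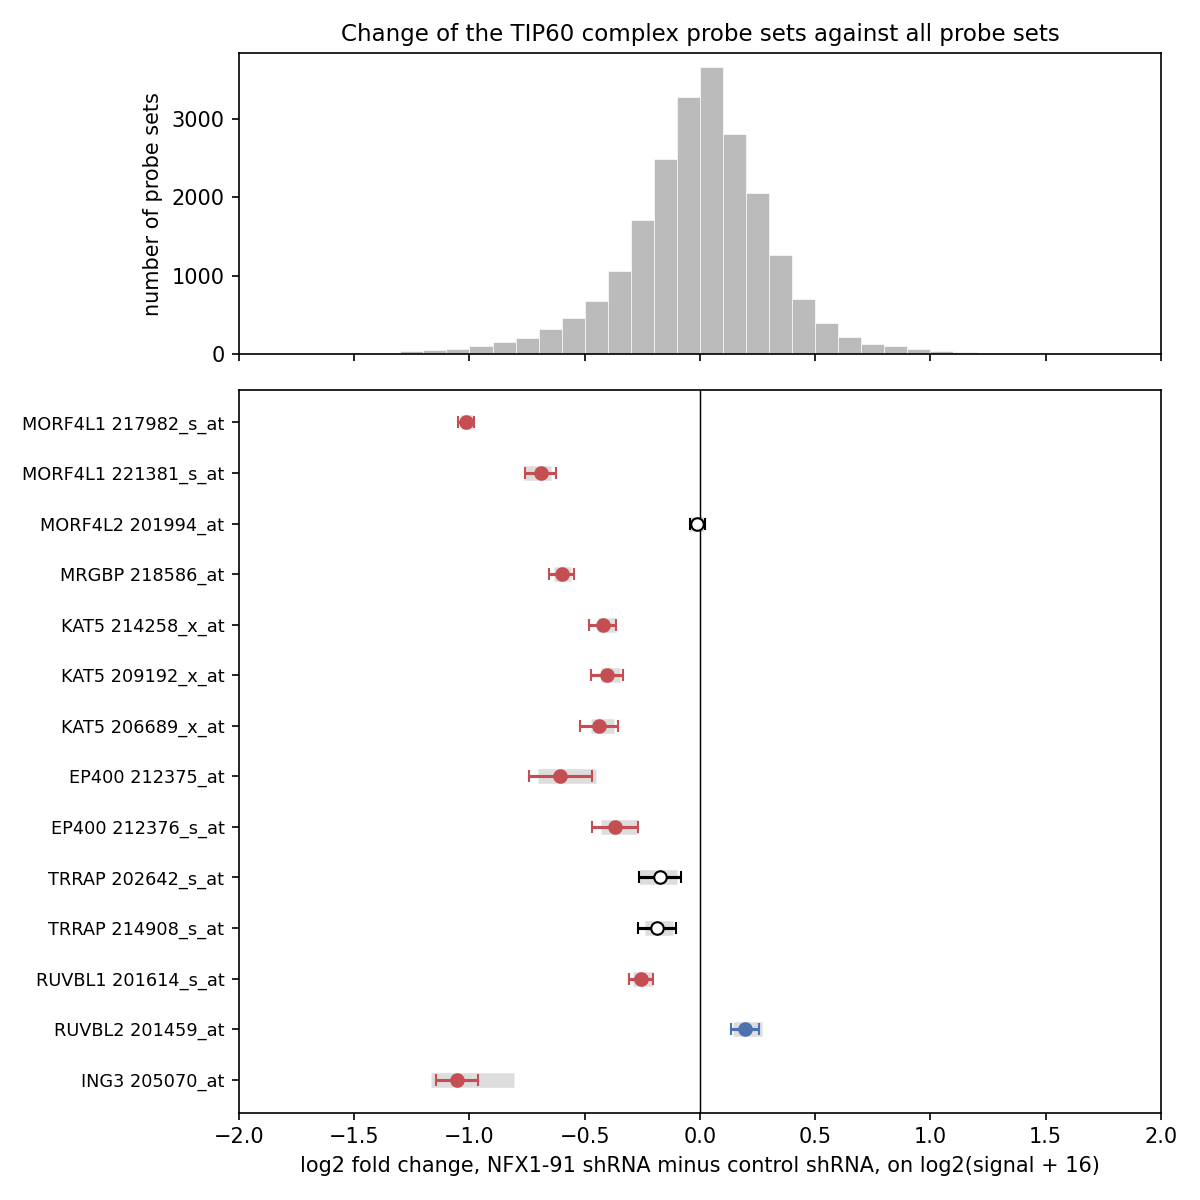
Top, number of probe sets (y axis) by log2 fold change (x axis) over all 22215, with values beyond the axis counted in the outermost bins. Bottom, log2 fold change of each member probe set with its SE (points and bars; red called lower, blue called higher, open not past the threshold), over a grey band that spans the alternatives. MORF4L1 at -1.01 and ING3 at -1.05 lie farthest left, and RUVBL2 at 0.20 is the one point called higher.

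The hairpin's target was read by 3 NFX1 probe sets, which may detect NFX1-91, the longer form NFX1-123 or both. On 202584_at the controls read 159, 144 and 139 and the NFX1-91 shRNA arrays 124, 139 and 138, with overlapping groups (log2 fold change -0.13, SE 0.096, limma adjusted p = 0.400). On 202585_s_at they read 81.7, 90.2 and 70.1 against 78.5, 81.0 and 69.3, also overlapping (log2 fold change -0.06, SE 0.122). Only the dim 210268_at was lower, at 16.8, 17.7 and 24.4 against 8.87, 8.83 and 4.56 (log2 fold change -0.60, SE 0.143, adjusted p = 0.0137). The reading of the knockdown thus rests on a probe set near the offset, and its size on the offset: -1.32 with an offset of 1 and -0.23 with 64, while it drops out where dim probe sets are left out.

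The arrays of a group correlated at 0.992 to 0.995 over all probe sets and arrays of different groups at 0.983 to 0.985. Markers matched an epithelial line: 6 of 6 epithelial genes, EPCAM and the keratins KRT8, KRT18 and KRT19 among them, lay above the array median on every array. Markers of differentiated colon were dim, with 0 of 5 above the median on every array, VIL1, CDH17 and LGALS4 having group means of at most 10.6. Their summed signal was 122 to 135 in controls and 151 to 168 in NFX1-91 shRNA arrays, but 0 of these 5 genes were called. CDX1 had group means of 45.5 and 62.0 (limma adjusted p over genes = 0.0504) and CDX2 of 66.9 and 72.3 (adjusted p = 0.601). The summed signal of the epithelial genes was 23827 to 24662 and 28424 to 28713. The epithelial genes went both ways: of 6, 4 were called, with EPCAM (log2 fold change -0.15) and CDH1 (-0.50) lower and the bright keratins KRT8 (0.35) and KRT18 (0.54) higher. Of 5 fibroblast markers 1 (COL1A1) was above the median, with sums of 245 to 323 and 274 to 331. The 4 measured blood cell markers summed to 79.9 to 104.0 and 105.1 to 127.9, with PTPRC and CD14 at group means of at most 15.1 and HBB called higher. Whether these shifts have a part in the members' changes was not tested.

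Partner genes of the members were read from 10 lists, each gene by its brightest single-gene probe set in a limma fit over 11963 genes, where 17.8% of all genes were lower and 14.7% higher (32.5% together). Groups did not overlap for 22.9% of all genes that were lower and 20.6% that were higher (43.5% together). The lists hold 99 genes, of which 80 were measured: 26 were lower, 9 higher and 45 did not pass. Their median log2 fold change was -0.10, against 0.00 over all genes. The lists too were chosen with earlier results of these data known, and nothing is read from these shares. In gene-level values below, adjusted p-values are over genes.

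Of 7 other TIP60 subunits measured, 2 fell, 1 rose and 4 did not pass, with a median of 0.00. VPS72, which binds the histone variant H2A.Z and also serves the SRCAP remodeller, read 682, 665 and 696 in controls and 416, 422 and 445.5 in NFX1-91 shRNA arrays (log2 fold change -0.65, SE 0.055). YEATS4, or GAS41, a YEATS-domain reader of acetylated histones shared with SRCAP, read 778, 830.5 and 837 against 529, 541 and 603 (-0.54, SE 0.063). Neither gene's groups overlapped. ACTB, the actin of these assemblies and of the cytoskeleton, rose by 0.19 (SE 0.030). BRD8, the bromodomain subunit, had means of 847.4 ± 46.4 and 847.2 ± 4.91 and a log2 fold change of 0.00.

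Among 13 subunits of the SRCAP and INO80 remodellers, which exchange H2A.Z and share RUVBL1 and RUVBL2, 5 fell and 8 did not pass (median -0.17). Those that fell include YY1, the zinc finger factor bound by INO80 (log2 fold change -0.32), CFDP1 (-0.47), the ATPase SRCAP (-0.58) and INO80B (-0.52). A second probe set of CFDP1 and of SRCAP, dim for both genes, did not pass. Of the 3 others of YY1 1 was lower (-0.41) and 2 did not pass (-0.11 and 0.06). By the mean of its probe sets CFDP1 read -0.20 (limma adjusted p = 0.266). SRCAP read -0.23 without its shared probe set (limma adjusted p = 0.311).

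Of 12 partners of MORF4L1 outside TIP60, 5 fell, 2 rose and 5 did not pass (median -0.12). PALB2, the repair scaffold that MORF4L1 binds, read 233, 222 and 233 in controls and 128, 128 and 142 in NFX1-91 shRNA arrays (log2 fold change -0.72, SE 0.083). The groups were well apart. RBBP4, a histone chaperone of SIN3 assemblies, fell by 0.51 on both of its probe sets, and ARID4B (-0.66) and EMSY (-0.63) fell too. The 2 that rose were SIN3B (0.42, SE 0.104) and RBBP7 (0.15, SE 0.033). ARID4B read 0.23 (adjusted p = 0.447 by limma) on a dim unshared probe set, so its fall rests on a shared one, and by the mean of both it read -0.22 (adjusted p = 0.164).

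The SAGA coactivator, the other assembly that contains TRRAP, had 4 of 14 subunits lower, 3 higher and 7 not past (median -0.12). TAF10, a histone-fold subunit it shares with TFIID, read 1404, 1607 and 1562 in controls and 658, 691 and 769 in NFX1-91 shRNA arrays (log2 fold change -1.09, SE 0.070) with groups far apart. SUPT20H read 339, 341 and 356 against 167, 176.5 and 164 (-0.96, SE 0.072), with 1 other probe set also called lower and 2 dim ones not past. The deubiquitinase USP22 (-0.36) and TAF12 (-0.45) also fell. The other probe sets of USP22, all dimmer, read 0.28, -0.19 and -0.06 and did not pass, and by the mean of its probe sets USP22 read -0.083 (limma adjusted p = 0.611). On its probe set that is not shared, 1 of the dim ones, SUPT20H read -0.10 (limma adjusted p = 0.626). That probe set lies at the 1.58th brightness percentile of all probe sets.

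The histone acetyltransferases KAT2A (log2 fold change 0.08, not past) and KAT2B (0.66, called higher) were counted with SAGA above. Other histone acetyltransferases had 3 of 8 lower and the rest not past (median -0.12). These were KAT8, the MYST-family relative of KAT5 that acetylates histone H4 (log2 fold change -0.40), CREBBP (-0.42) and KAT6B (-0.24). The calls of all 3 depend on the probe set. CREBBP read -0.11 by the mean of its probe sets (limma adjusted p = 0.550), of which the second is dim. KAT8 read -0.24 without its shared probe set (adjusted p = 0.250). KAT6B read -0.18 by the mean of its probe sets (adjusted p = 0.180). Its other probe sets read -0.09, -0.43 and 0.04 and did not pass. KAT6B was not called when any of 4 arrays was left out (control replicate 2 or 3, NFX1-91 shRNA replicate 1 or 2; limma adjusted p from 0.0753 to 0.112). Of the ING relatives of ING3, ING1 was called lower at -0.24 (SE 0.075), while ING4 read -0.28 (SE 0.124, limma adjusted p = 0.115) and ING2 -0.10 (SE 0.104, adjusted p = 0.546). The ING1 call did not hold under 5 of 6 omissions of an array (limma adjusted p from 0.0530 to 0.106), but held without NFX1-91 shRNA replicate 3. The call was also lost without a variance trend (adjusted p = 0.0771). The 2 other probe sets of ING1 read 0.00064 and 0.13 and did not pass. By the mean of its probe sets ING1 read -0.037 (limma adjusted p = 0.788). ING2 turned to 0.12 by the mean of its probe sets.

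Genes of the HSP90 cochaperone machinery that RUVBL1 and RUVBL2 serve had 3 of 8 lower and 1 higher (median -0.20). URI1, a prefoldin-like partner of these ATPases, rose by 0.41 (SE 0.053), and 1 of its other probe sets was called higher and 1 not past. UXT (-0.45), POLR2E (-0.19) and PIH1D1 (-0.23) were lower. The PIH1D1 call was lost without NFX1-91 shRNA replicate 1 or 2 (limma adjusted p = 0.0556 and 0.0538). Without a variance trend the calls of POLR2E and PIH1D1 were lost (limma adjusted p = 0.0674 and 0.0667). A second POLR2E probe set, also bright, did not pass (-0.145, limma adjusted p = 0.145). URI1 read -0.09 (adjusted p = 0.737) on its unshared probe set, which is dim. Of 4 PIKK kinases, which this machinery folds and to which TRRAP is related, 0 passed by limma (median 0.15; at an unadjusted p under 0.05, 1 higher and 1 lower): ATM, a substrate of TIP60, read 0.12 (SE 0.089) and PRKDC -0.18 (SE 0.063, adjusted p = 0.0548).

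Of 4 H2A variants, 2 were lower and 1 higher (median -0.03). H2AX, whose phosphorylated form marks broken DNA and which TIP60 acetylates, read 4179, 4105 and 4018 in controls and 2985, 2923 and 2805 in NFX1-91 shRNA arrays (log2 fold change -0.50, SE 0.036). Its groups did not overlap, and 1 of its 3 other probe sets was also lower; by the mean of all 4 it read -0.27. H2AZ2, which encodes a form of H2A.Z, was called lower at -0.11 (SE 0.036) on its brightest probe set, which did not pass in the limma fit over probe sets (adjusted p = 0.0540). Another H2AZ2 probe set was lower at -0.25 (adjusted p = 0.0127 by limma), and the last read -0.10 and did not pass. H2AZ1, the other H2A.Z gene, read 0.04 (SE 0.029, limma adjusted p = 0.319). MACROH2A1 was called higher at 0.13 (SE 0.042) on its brightest probe set. Its other probe sets read 1.16, called higher (limma adjusted p = 0.000402), and 0.06, not past, so the size of its rise depends on which is read. The H2AZ2 call was lost under 5 of 6 single-array omissions (all but control replicate 1), with limma adjusted p up to 0.143. That of MACROH2A1 was lost under 4 (control replicate 2 or 3, NFX1-91 shRNA replicate 1 or 2), with adjusted p up to 0.118. Both calls were also lost without a variance trend (limma adjusted p = 0.186 and 0.180). Of 7 bromodomain readers 1 was lower, BRD3 at -0.43 on its brightest probe set, and 1 higher, TAF1 at 0.46 (SE 0.127). By the mean of its probe sets TAF1 read 0.26 (limma adjusted p = 0.203), and it was not called without control replicate 3 or NFX1-91 shRNA replicate 1 or 3 (adjusted p from 0.0625 to 0.0739).

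**Figure D3:**
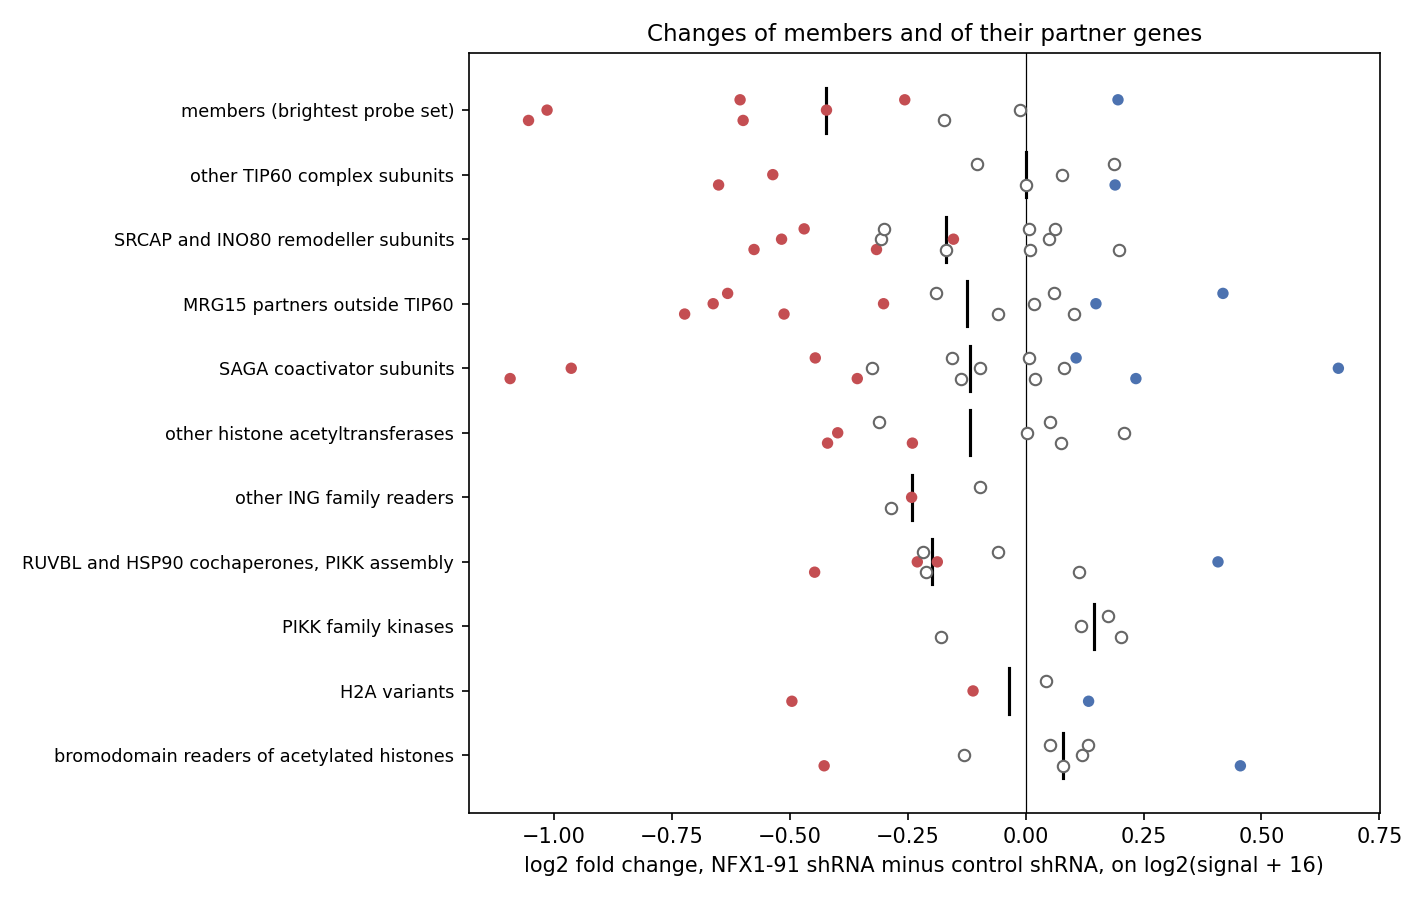
Log2 fold change (x axis) of the 9 members, each by its brightest probe set, and of the measured genes of 10 partner lists (rows). Points are genes, filled red where called lower, filled blue where called higher and open where not past the threshold; the black line is the median of the row. The members have a median of -0.42, and the medians of the partner lists lie between -0.24 and 0.15.

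Of the 30 named partner genes, 21 have several probe sets, and for 16 of those the probe sets were not all called alike. None of the 21 genes with several probe sets had them called in opposite directions (0 by limma over probe sets). Probe sets that did not pass cannot count as opposite, and some read with the other sign, as for ARID4B and USP22.

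The pattern over the 6 arrays of the brightest MORF4L1 probe set was compared with every other gene. The 5 most alike by Pearson's r of log2 signal were the repair scaffold XRCC1 (0.9997), the mitochondrial ribosomal protein MRPS12 (0.9994), the lysosomal membrane protein LAPTM4B (0.9994), the ephrin EFNA4 (0.9992) and the claudin CLDN7 (0.9990). XRCC1 read 294, 288 and 288 in controls and 77.1, 67.0 and 69.9 in NFX1-91 shRNA arrays. All 5 fell, with log2 fold changes of -1.81, -0.57, -0.46, -1.42 and -1.11. The likeness follows the step between the groups and says little else: 203 of 11954 genes had an r above 0.99. Among the members r with MORF4L1 was 0.995 for KAT5, 0.987 for ING3, 0.986 for MRGBP, 0.906 for EP400, 0.885 for RUVBL1, 0.570 for TRRAP, 0.244 for MORF4L2 and -0.800 for RUVBL2. These are descriptions over 6 arrays that share the 2 groups.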

How the data were processed

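Biotin-labelled total RNA was hybridised to Affymetrix human expression arrays, per the labels' protocols, 3 per group. The deposited values are linear intensity per probe set, each array summing to 1. Probe summarisation and scaling by the authors are not given in the sources used here.

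Arrays were multiplied by 1 common factor to a mean of 500 (a level set once the values were known) and put on a log2(signal + 16) scale. Probe sets were named by the platform annotation (19064 with 1 gene, 1043 several, 2108 none). The group difference was fitted by limma 3.58.1 (R 4.3.3; unpaired, two-sided, empirical Bayes with a trend, Benjamini-Hochberg) over 22215 probe sets, and over 11963 genes by their brightest probe set for partner lists. Of these steps, only the limma fit over probe sets was tried on simulated data. Figures used Python 3.11.15 and matplotlib 3.10.9. Promoter letters are from RefSeq.

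Members and lists were chosen with earlier results of these data known. The 30 named partners were called genes with smallest adjusted p, up to 4 a list, and whole lists of up to 3 measured genes. BRD8, ATM, PRKDC, H2AZ1, KAT2A, KAT2B, SIN3B and RBBP7 were named beside them. EPCAM and other markers came from fixed lists. Replicate numbers were not treated as pairs, since nothing says that a number marks a shared culture or day. Deviations of same-numbered arrays from their group means correlated at -0.06, 0.09 and -0.09. Alternatives covered normalization, offset, dim probe sets, variance prior, array weights, replicate block, omission of each array, choice of probe set, threshold and fold. Few arrays limit the precision.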

Additional observations from a re-analysis of the deposited data

How the results depend on the processing

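Of 219 values of member probe sets under alternatives, 202 kept direction and call, 14 lost and 1 gained the call, and 2 changed sign. Some alternatives cannot change a log2 fold change, only its call. These are dim probe sets left out, no variance trend, the robust prior, the replicate block and 1 probe set a gene. Probe sets that were never called, as those of MORF4L2, count as kept where the sign held. Losses were those of RUVBL2, EP400 212376_s_at and RUVBL1 given above. TRRAP 214908_s_at passed with array weights (-0.23, limma adjusted p = 0.0340), and MORF4L2 read 0.017 with median centring and 0.00022 with array weights. The number of member probe sets called lower, 10, was 9 to 10 with an array left out, 6 with 1 probe set a gene (of 9), 9 with the replicate block or without a variance trend, and 11 with array weights. That called higher, 1, was 0 with quantile normalization, without a variance trend and with the replicate block, and 0 to 1 with an array left out. Apart from the RUVBL2 and EP400 calls, the replicate block changed no member call.

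Over all probe sets 2656 were higher and 3047 lower. With an array left out these were 1669 to 2761 and 2187 to 3201, the lowest number higher being that without NFX1-91 shRNA replicate 2. At a threshold of 0.01 the number higher was 1535, and at 1.5-fold 641 were higher and 1079 lower. Among partner genes, 9 higher and 26 lower became 6 to 10 and 21 to 28 with an array left out, 4 higher at 0.01, and 1 higher and 6 lower at 1.5-fold. For the named partners too, some alternatives could change only the call. Of 510 values of the 30 named partners 462 kept direction and call, 44 lost the call and 4 changed sign. The sign changes were ARID4B (0.23), URI1 (-0.091) and ING2 (0.34) with shared probe sets left out, and ING2 (0.12) by the mean. The causes were not tested.

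With an array left out, the log2 fold change of NFX1 ran from -0.17 to -0.08 on 202584_at, from -0.14 to 0.0069 on 202585_s_at and from -0.66 to -0.51 on 210268_at. The differences within members ran from -0.39 to -0.26 for MORF4L1, from -0.33 to -0.11 for EP400 and from -0.067 to 0.11 for TRRAP. For KAT5 they ran from -0.073 to 0.0085 (214258_x_at minus 209192_x_at), from -0.042 to 0.055 (214258_x_at minus 206689_x_at) and from -0.049 to 0.11 (209192_x_at minus 206689_x_at).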

Other observations

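Genes next to the members on the chromosome, by RefSeq gene starts on GRCh38.p14, were read after the members' values had been seen. Of 18 neighbours 12 were measured, and 3 passed in the limma fit over genes, against 32.5% of all genes. OGFR, an opioid growth factor receptor beside MRGBP, fell by 0.59 (SE 0.060, adjusted p = 5.73e-05), close to the log2 fold change of -0.60 of MRGBP itself. GYS1, the muscle glycogen synthase beside RUVBL2, rose by 0.29 (SE 0.059, adjusted p = 0.00422). TSPAN12, a tetraspanin beside ING3, rose by 0.94 (SE 0.116, adjusted p = 0.000177), opposite to ING3. CTSH, a cathepsin beside MORF4L1, read -0.18 (SE 0.081, adjusted p = 0.121), and RELA, the NF-kB subunit beside KAT5, -0.12 (SE 0.047, adjusted p = 0.0889). The calls of OGFR, GYS1 and TSPAN12 held in 51 of 51 values under alternatives.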
